A study of Homo sapiens with 3 samples.

Results

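The MYC family network was represented by a fixed list of 10 genes: MYC, MYCL1 (the older symbol of MYCL), MYCN, MAX, MXD1, MXD3, MXD4, MNT, MGA and MLX. No cut on a measured value selected them, but earlier results of these data were known when the list was chosen. All 10 were found among the 29689 gene symbols of the expression table. The study asked how inhibition of CDK2 or EZH2 changed the transcriptome of triple-negative breast cancer (TNBC). RNAseq was performed on tumors of SUM-149, an established human TNBC cell line, mixed with Matrigel and grown in the mammary fat pads of female Nu/Nu mice, which keep their own stromal cells but lack mature T cells. There was 1 library from a vehicle-treated tumor, 1 from a tumor treated with the CDK2 inhibitor dinaciclib for 10 days (CDK2i), and 1 from a tumor treated with the EZH2 inhibitor EPZ6438 for 10 days (EZH2i). Each group was thus a single library from a single cell line, so no difference below has a replicate check and no p-value was computed. In bulk tumor RNA, a lower value can come from fewer cells of a type or from less RNA per cell, and these cannot be told apart.

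MYC, MYCL and MYCN are basic helix-loop-helix leucine zipper transcription factors that bind DNA only as dimers with MAX. The same MAX protein also pairs with MXD1, MXD3, MXD4, MNT and MGA, which compete with MYC and mostly repress transcription, and MLX is a MAX-like protein that pairs with MondoA, ChREBP and some MXD proteins. MAX dimers recognize the E-box, CACGTG, and MYC is a short-lived oncogene product that drives ribosome production, metabolism and cell division in basal-like breast cancer.

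The promoter sequences of the network are shown here because the network's dimers bind this motif and several of its own genes carry it. RefSeq promoters (GRCh38.p14, 250 bases before to 50 bases after the start site) were matched for 9 of the 10 genes, with 12 promoters in all. MYC itself had no match, and MAX had 2 and MGA 3 of the 12. CACGTG, which reads the same on both strands, was present in 3 of these 12 promoters (25%), against 7.26% of the 35116 promoters in the table. A count over 12 promoters is not read as a departure from that share. The 3 genes were MXD4 (minus strand, chr4:2262312-2262359), MNT (minus strand, chr17:2401218-2401283) and MLX (plus strand, chr17:42567020-42567085), and the E-box began 238, 193 and 50 bases before their start sites. It is printed in capitals, 5′ to 3′ on the gene's strand.
MXD4: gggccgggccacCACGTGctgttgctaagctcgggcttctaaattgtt
MNT: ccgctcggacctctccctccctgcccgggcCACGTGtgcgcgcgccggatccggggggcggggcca
MLX: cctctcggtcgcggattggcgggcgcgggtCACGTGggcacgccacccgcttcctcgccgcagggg

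MXD1, the network repressor called higher in CDK2i below, had no CACGTG in its promoter window. The last 100 bases before its start site (plus strand, chr2:69915009-69915108, GRCh38.p14) are given for comparison. ODC1, a MYC-induced enzyme gene whose values stand further on, had 2 E-boxes around 1 of its 2 annotated start sites (minus strand, chr2:10447987-10448071). These matches describe letters in a window and not bound sites.
MXD1: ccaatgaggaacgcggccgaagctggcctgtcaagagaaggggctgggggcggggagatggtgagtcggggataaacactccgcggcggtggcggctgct
ODC1: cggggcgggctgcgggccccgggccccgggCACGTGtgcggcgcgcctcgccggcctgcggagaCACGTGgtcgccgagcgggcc

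Levels are given as FPKM, fragments scaled by gene length and by mapped fragments of the library, which allows genes to be compared per length. From the size of the steps between low values, the depths of the vehicle, CDK2i and EZH2i libraries were 16.8, 19.1 and 17.5 M fragments (M, mega). A gene was called higher or lower when it differed more than 2-fold between 2 libraries and the higher value was above log2 FPKM 3 (8 FPKM), the size thresholds of the study. Each change carries a 95% counting interval, which covers only the sampling of fragments and not differences between tumors. As a stand-in for variation among tumors, a spread is given, the SD of the difference between the EZH2i and CDK2i libraries over the 200 genes nearest in expression, and it also holds effects of the drugs. Over the 11109 expressed genes (mean log2 FPKM above 1, detected in all 3 libraries), the log2 change had a median of −0.11 for CDK2i and 0.19 for EZH2i. In EZH2i the change also ran with transcript composition. Across 10197 expressed genes that encode no ribosomal protein, it had a Spearman rho of −0.581 against GC content and 0.489 against transcript length, where CDK2i had 0.0341 and 0.0936. Genes share these libraries and are not independent replicates. The change with this GC and length trend removed is therefore given for the network genes and for the list values that it moves most.

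The tumors carried the markers of their labelled origin. All 9 epithelial and basal markers were expressed, and the summed FPKM of the list was 5297 in vehicle, 12428 in CDK2i and 5010 in EZH2i. All 9 could pass in each comparison. KRT5, KRT14 and KRT17, basal keratin genes, were called higher in CDK2i, where 3.27% of all genes were. In EZH2i 2 other markers of the list were called higher, where 8.93% of all genes were. Their changes of 1.13 and 1.05 were 0.48 and 0.42 with the GC and length trend removed. Of the 9 markers, 6 had changes above 0 in EZH2i, and 5 did with the GC and length trend removed. Leukocyte markers summed to 0.170 to 0.218 FPKM and endothelial markers to 0.466 to 0.833 FPKM, with the macrophage gene CD163 listed at 0 in vehicle and EZH2i and CD68 listed at 0 in CDK2i and EZH2i. The 5 fibroblast markers summed to 20.6, 36.8 and 27.9 FPKM in vehicle, CDK2i and EZH2i, and LUM was called higher in CDK2i. They did not move together: of the 3 expressed, COL1A1 and LUM had CDK2i changes of 0.95 and 1.02, and DCN of −0.70 (−0.95 to −0.45). Reads of mouse host cells that align to the human genome cannot be told apart in these values. The part of these markers in the results below was not tested.

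Of the 10 network genes, 7 could be called in each comparison because they exceeded the minimum: MYC, MAX, MXD1, MXD3, MXD4, MNT and MLX. MYCL1, MYCN and MGA stayed below it in all 3 libraries. In CDK2i 2 of the 7 genes were called, MYC and MXD1, both higher, where 11.3% of the 6632 genes that could pass were called in either direction and 3.27% were called higher. In EZH2i none of the 7 genes was called, against 13.4% of 7414 genes in either direction, 8.93% higher and 4.42% lower. Comparing the inhibitors directly, MYC and MXD4 were called lower in EZH2i than in CDK2i, where 24.1% of 7394 genes were called, 17.5% higher and 6.52% lower. No count over 7 genes is read as a departure from these shares. The 7 expressed members had medians of 0.00 for CDK2i and 0.17 for EZH2i, beside −0.11 and 0.19 over all expressed genes.

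**Figure D1:**
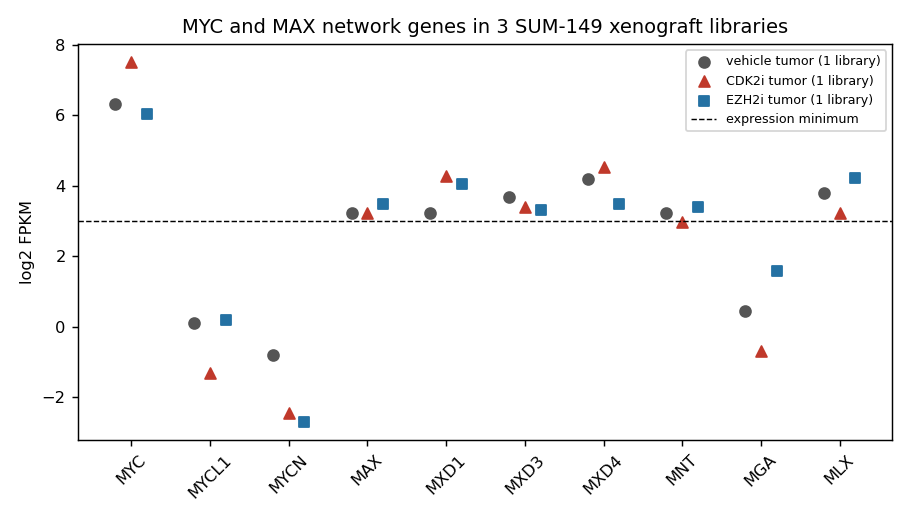
Level of each network gene (log2 FPKM, vertical axis) in the vehicle, CDK2i and EZH2i tumors, 1 library each, with the expression minimum of 3 as a dashed line. MYC lies far above every other gene in all 3 libraries, and MYCL1, MYCN and MGA stay below the minimum.

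MYC (chromosome 8, 128747680 to 128755197, plus strand; GRCh37, as are all gene positions below) was the most abundant gene of the network in each tumor. It was at 79.7 FPKM in vehicle, against 182 under CDK2i and 65.5 under EZH2i. The CDK2i tumor was therefore high and the other tumors lay close to each other. MYC was 2.29 times the vehicle level in CDK2i, a log2 change of 1.20 (counting interval 1.15 to 1.24) against a spread of 0.63. This change exceeded that of 98.1% of the expressed genes. In EZH2i its log2 change was −0.28 (−0.34 to −0.22), within the spread, and −0.63 with the trend removed. Between the inhibitors MYC differed by −1.48 (−1.53 to −1.43), EZH2i minus CDK2i, and by −2.03 with the trend removed.

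MYCL1 and MYCN, the paralogs of MYC best known from lung cancer and neuroblastoma, were weakly expressed. MYCL1 (chromosome 1, 40361100 to 40367928, minus strand) was at 1.06 FPKM in vehicle, against 0.401 under CDK2i and 1.14 under EZH2i, about 63, 27 and 70 fragments. Its log2 change was −1.40 in CDK2i (−2.12 to −0.74) and 0.10 in EZH2i (−0.42 to 0.60), and the latter was 0.05 with the trend removed and −0.11 when libraries were centred on their median genes. MYCN (chromosome 2, 16080672 to 16087129, plus strand) was at 0.572, 0.181 and 0.154 FPKM, about 25, 9 and 7 fragments. Its change was −1.66 in CDK2i (−2.95 to −0.52) and −1.90 in EZH2i (−3.35 to −0.65), the latter −1.82 with the trend removed. At such low levels a pseudocount of 1 FPKM reduced these changes to −0.41 and −0.45, and that of MYCL1 in CDK2i to −0.56. Both paralogs were below vehicle in CDK2i, where MYC was high, but MYCN was also low in EZH2i, where MYC was lowest. MYC made up 98.0%, 99.7% and 98.1% of the summed FPKM of the family in vehicle, CDK2i and EZH2i.

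MAX (chromosome 14, 65472892 to 65569413, minus strand), the obligate partner of MYC, had the smallest range of log2 FPKM among the 10 genes. It was at 9.25 FPKM in both vehicle and CDK2i and at 11.1 in EZH2i. The log2 change was 0.00 in CDK2i (−0.22 to 0.23) and 0.26 in EZH2i (0.04 to 0.48), the latter 0.16 with the trend removed, against a spread of 0.77. Other scalings placed its CDK2i change between −0.14 and 0.26. The ratio of MYC to MAX within a library, which no scaling between libraries can move, was 8.61 in vehicle, 19.7 in CDK2i and 5.93 in EZH2i, and 18.9 and 4.98 in the treated tumors with the trend removed.

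MXD1 (chromosome 2, 70124820 to 70170077, plus strand), a MAX-binding repressor known to be induced as cells differentiate, was low in vehicle and higher in both treated tumors. It was at 9.42 FPKM in vehicle, against 19.3 under CDK2i and 16.5 under EZH2i. In CDK2i this was 2.05 times the vehicle level, a log2 change of 1.04 (0.92 to 1.15) with a spread of 0.79. It lay just past the fold threshold, and it fell to 0.89 when libraries were scaled to equal summed FPKM without ribosomal protein and mitochondrial genes. In EZH2i the change was 0.81 (0.69 to 0.93), just past the spread and short of the fold threshold. The MXD1 transcript is long (5549 nucleotides) with a GC content of 42.5%, and its EZH2i change was 0.13 with that trend removed. The same step left the CDK2i change at 1.16. Both comparisons used the same vehicle library. Between the inhibitors MXD1 differed by −0.23, EZH2i minus CDK2i, and by −1.03 with the trend removed, a call that appeared with that step alone among the settings tried.

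MXD4 (chromosome 4, 2249159 to 2263836, minus strand) was the most abundant of the MAX-binding repressors in vehicle and CDK2i. It was at 18.4 FPKM in vehicle, against 23.2 under CDK2i and 11.2 under EZH2i, so EZH2i was low. The change was 0.34 in CDK2i (0.23 to 0.45) and −0.72 in EZH2i (−0.85 to −0.58), the latter −0.57 with the trend removed, each within its spread of 0.75. Between the inhibitors MXD4 differed by −1.05 (−1.18 to −0.93), EZH2i minus CDK2i, and by −0.91 with the trend removed. That call just passed the fold threshold, and it was also lost with a pseudocount of 1 FPKM and with either scaling to equal summed FPKM. MXD3 (chromosome 5, 176728462 to 176739758, minus strand), a relative of MXD4 linked to proliferating cells, was at 12.7, 10.4 and 9.82 FPKM in vehicle, CDK2i and EZH2i. Its changes of −0.29 in CDK2i (−0.56 to −0.01) and −0.37 in EZH2i (−0.66 to −0.08) stayed within the spread of 0.73, and the EZH2i value turned to 0.28 with the trend removed, its transcript having a GC content of 65.6%.

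MNT (chromosome 17, 2287367 to 2304398, minus strand), the broadly expressed MAX-binding antagonist of MYC, was at 9.41, 7.80 and 10.6 FPKM in vehicle, CDK2i and EZH2i. Its log2 change was −0.27 in CDK2i (−0.42 to −0.12) and 0.17 in EZH2i (0.03 to 0.31), within the spread of 0.76, and the latter was −0.05 after centring. MXD1, MXD3, MXD4 and MNT together summed to 49.9 FPKM in vehicle, against 60.7 under CDK2i and 48.1 under EZH2i. MXD1 took 18.9% of this sum in vehicle, 31.8% in CDK2i and 34.3% in EZH2i. MXD4 took 36.8%, 38.2% and 23.2%. The ratio of MXD1 to MXD4 was 0.513 in vehicle, 0.833 in CDK2i and 1.48 in EZH2i. In EZH2i these values depended on the trend: with it removed, the MXD1 share was 21.1%, near that of vehicle, the MXD4 share 25.4% and the MXD3 share 31.7%, and MXD1 lay below MXD4 with a ratio of 0.831. In CDK2i the MXD1 share was 33.5% and the ratio 0.906 with the trend removed. The ratio of MYC to these 4 repressors was 1.60 in vehicle, 3.0 in CDK2i and 1.36 in EZH2i, and 3.33 and 1.06 in the treated tumors with the trend removed.

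**Figure D2:**
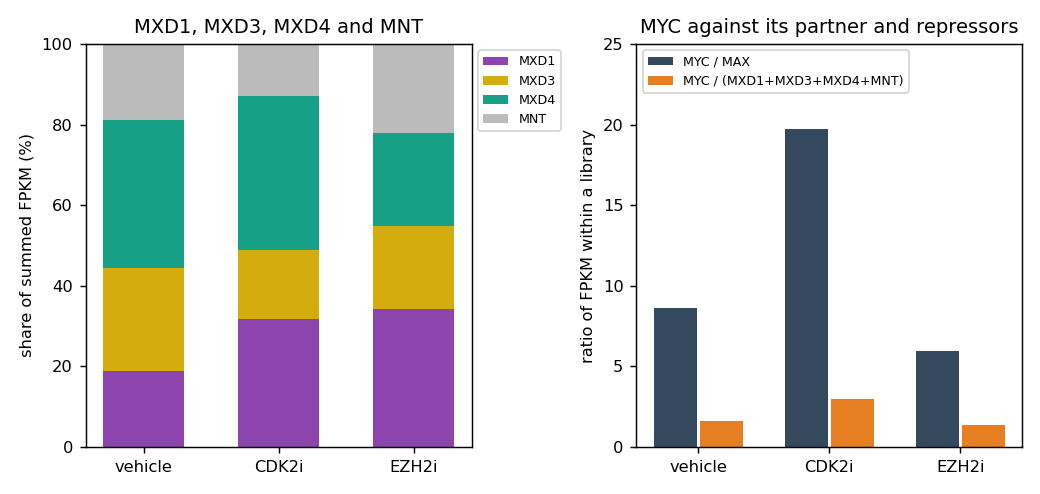
Left, share of MXD1, MXD3, MXD4 and MNT in their summed FPKM (%), by tumor. Right, ratio of the FPKM of MYC to that of MAX and to the sum of the 4 repressors within each library; bars are single libraries without error bars. The MYC to MAX ratio is highest in CDK2i (19.7), and the MXD1 share is lowest in vehicle (18.9%); no trend is removed here, and with it removed the MXD1 share in EZH2i is 21.1%.

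MGA (chromosome 15, 41913332 to 42065279, plus strand), the large MAX-binding scaffold of a Polycomb-type repressor complex, lay on opposite sides of vehicle in the treated tumors. It was at 1.36 FPKM in vehicle, against 0.612 under CDK2i and 2.97 under EZH2i. CDK2i was low and EZH2i high, with log2 changes of −1.15 (−1.45 to −0.85) and 1.12 (0.92 to 1.34) and a difference of 2.28 between them, which was 1.47 with the trend removed and 1.30 with a pseudocount of 1 FPKM. Both folds exceeded 2, but no value reached the expression minimum. MGA had the longest transcript of the network (12193 nucleotides) with a GC content of 43.2%. With the trend removed the changes were −1.14 in CDK2i and 0.32 in EZH2i. MLX (chromosome 17, 40719090 to 40725257, plus strand) showed the same order at a higher level, with 13.8 FPKM in vehicle, against 9.40 under CDK2i and 18.4 under EZH2i. Its changes of −0.56 (−0.75 to −0.37) and 0.41 (0.26 to 0.58) were within the spread of 0.77, and were −0.32 and 0.27 with the trend removed. Between the inhibitors MLX differed by 0.97, short of the fold threshold. It was 0.59 both with the trend removed and after centring, and it passed at 1.07 with equal summed FPKM and at 1.15 with those sums taken without ribosomal protein and mitochondrial genes.

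**Figure D3:**
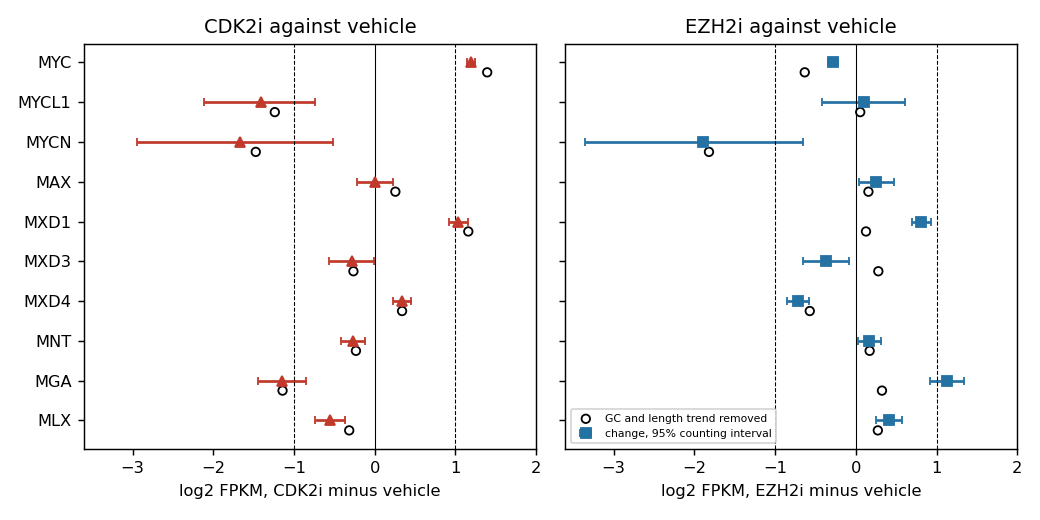
Change of each network gene from vehicle (log2 FPKM, horizontal axis) in CDK2i (left) and EZH2i (right), with bars for the 95% counting interval, open circles for the change without the GC and length trend, and dashed lines at 2-fold. MYC and MXD1 lie past 2-fold in CDK2i, while in EZH2i the open circles of MXD1 (0.13) and MGA (0.32) lie well below the unadjusted values (0.81 and 1.12).

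The genes whose 3 values, centred on their own mean, lay nearest to those of MYC were sought among 7572 genes above the expression minimum in at least 1 library. NR1D1, MAZ, RHOB, WFDC5 and JMJD8 were the nearest, at Euclidean distances of 0.0201 to 0.0782 on the log2 scale. For CDK2i and EZH2i, the changes were 1.20 and −0.26 for NR1D1, a circadian nuclear receptor gene, and 1.24 and −0.27 for MAZ, a zinc finger factor first found at the MYC promoter. Near to MXD1 were the clone-named gene RP13-463N16.6, ANO1, ERMP1 and COL17A1, at distances of 0.0143 to 0.0904. ANO1, a chloride channel gene, had changes of 1.09 and 0.91. A profile over 3 libraries describes these libraries only.

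MYC is itself an early-response gene, and the immediate early genes, which cells switch on rapidly after a stimulus, were high in the same tumor. The 17 immediate early genes summed to 520 FPKM in vehicle, against 4976 under CDK2i and 552 under EZH2i. Of the 16 that could pass in CDK2i, 14 were called higher, where 3.27% of all genes were, with a median change of 2.72 over the 16 expressed genes and a range of 0.67 to 4.64. Earlier results of these data were known when this list was chosen. JUNB was at 125, 1461 and 89.8 FPKM in vehicle, CDK2i and EZH2i, and FOS at 20.5, 511 and 37.4 FPKM. In EZH2i the median of the list was 0.00. Of the 13 genes that could pass there, 1, EGR1, was called lower, where 4.42% of all genes were. The change of MYC in CDK2i, 1.20, lay below the CDK2i median of the list. The part of this response in the level of MYC was not tested.

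Of the 6 remaining network genes, 3 could pass in each comparison and none was called. Over all genes, 11.3% were called in CDK2i, 13.4% in EZH2i and 24.1% between the inhibitors. MXI1, a further repressor of the MXD type, was at 13.0 FPKM in vehicle, against 16.5 under CDK2i and 13.0 under EZH2i. ZBTB17, which encodes the MYC partner MIZ1, was at log2 FPKM 4.47, 3.94 and 4.32. MLXIP, which encodes MondoA, was at 2.97, 3.11 and 3.54, and MLXIPL (ChREBP) was below log2 FPKM 0 in all 3 tumors. MYCBP and MYCBP2, whose products bind MYC, stayed below the minimum, with changes of 0.75 and 0.82 in EZH2i that were 0.26 and 0.05 with the trend removed.

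Nucleolar genes that MYC is known to induce lay mostly below their vehicle level in CDK2i, as did most expressed genes. Of 25 nucleolar and ribosome biogenesis genes, 22 could pass in CDK2i, of which none was called higher and 3 were called lower, where 3.27% of all genes were called higher and 8.07% lower. RRS1, a ribosome assembly factor, was at log2 FPKM 3.53, 1.24 and 3.82 in vehicle, CDK2i and EZH2i. WDR43 was at 8.95, 3.24 and 18.3 FPKM, and NOP16 at 19.7, 8.69 and 18.8. Over the 25 genes the median change was −0.32 in CDK2i, with 20 below 0. All expressed genes had a median of −0.11, with 58.0% below 0. With the trend removed the list median was −0.07, with 15 below 0, where that of all expressed genes was 0.05. In EZH2i the list median was 0.41 with 20 above 0, where that of all expressed genes was 0.19. With the trend removed these medians were 0.20 and 0.01 in EZH2i. Of the 22 genes that could pass in EZH2i, 2 were called higher, where 8.93% of all genes were. They were WDR43 and DDX21, an RNA helicase gene, with changes of 1.03 and 1.12, and of 0.43 and 0.42 with the trend removed. Between the inhibitors 22 of the 25 genes were higher in EZH2i, with a median of 0.71, where the median over all expressed genes was 0.35. With the trend removed 18 of 25 were higher, with a median of 0.23, where that of all expressed genes was −0.04.

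Metabolic MYC targets included a gene called higher in both treated tumors. Of 19 such genes, 16 could pass in CDK2i and 17 in EZH2i. ODC1, the rate-limiting enzyme of polyamine synthesis and a classic MYC target, was called higher in both, at 39.8 FPKM in vehicle, against 120 under CDK2i and 178 under EZH2i. Its log2 changes were 1.59 (1.51 to 1.67) and 2.16 (2.09 to 2.24) with a spread of 0.65, and 1.83 and 1.98 with the trend removed. ODC1 was highest in EZH2i, the tumor with the lowest MYC, and the part of MYC in the level of ODC1 was not tested. The whole list had a median of 0.10 in CDK2i and 0.58 in EZH2i, and of 0.21 and 0.20 with the trend removed; the CDK2i median was −0.04 with equal summed FPKM without ribosomal protein and mitochondrial genes. Of the 8 cell cycle targets, 4 could pass in CDK2i and 6 in EZH2i, and none was called against vehicle. Over all genes, 11.3% were called in CDK2i and 13.4% in EZH2i. CCNE1, the cyclin E gene, chosen here after its values were seen, was at 6.30, 2.89 and 9.30 FPKM. Between the inhibitors CCNE1 was the 1 gene called of the 6 that could pass, higher in EZH2i by 1.69, and by 1.43 with the trend removed. Of all genes, 17.5% were called higher in that comparison. Over the 7 expressed the medians were −0.51 (CDK2i) and 0.34 (EZH2i), the latter 0.20 with the trend removed, and CDK4 was at log2 FPKM 4.52, 4.84 and 4.48.

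Within the list of MYC-repressed genes, and within that of MLX and MondoA targets, genes went different ways. Of the MYC-repressed genes 6 could pass in each comparison with vehicle, and 2 were called in each. Of the MLX and MondoA targets 3 could pass and 1 was called in each. Over all genes, 11.3% were called in CDK2i and 13.4% in EZH2i. The medians for CDK2i and EZH2i were 0.60 and 0.18 over the expressed MYC-repressed genes, and 0.37 and 0.51 over the MLX and MondoA targets. With the trend removed the EZH2i medians were 0.08 and 0.21. Of 7 genes that MYC is known to repress, NDRG2, a stress and differentiation gene, was called higher in CDK2i and lower in EZH2i, at 10.2, 20.8 and 2.52 FPKM in vehicle, CDK2i and EZH2i. CDKN1B, which encodes the CDK inhibitor p27, was called lower in CDK2i, at 17.9, 6.25 and 19.8 FPKM. THBS1 was at 30.7, 59.7 and 64.4 FPKM, with changes of 0.96 in CDK2i, short of the threshold, and 1.07 in EZH2i, called higher, the latter 0.40 with the trend removed. Of the 4 MLX and MondoA targets, KLF10 was called higher in CDK2i, at 13.4, 99.7 and 20.7 FPKM. KLF10 is also a stimulus-responsive gene. TXNIP, the glucose-sensing reporter of MondoA and MLX, was called lower in EZH2i, at 13.7, 11.2 and 4.93 FPKM, a log2 change of −1.48 (−1.69 to −1.27), and of −1.90 with the trend removed, while ARRDC4, the other classic target, was at 1.64, 2.44 and 4.08 FPKM.

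**Figure D4:**
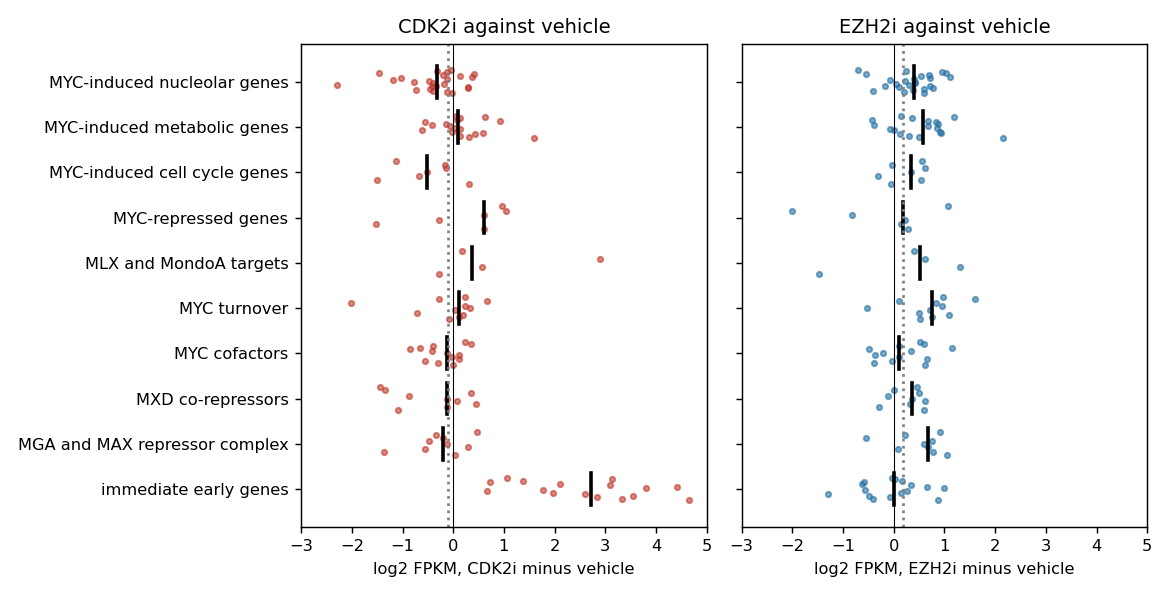
Change from vehicle (log2 FPKM, horizontal axis) of the expressed genes of each list in CDK2i (left) and EZH2i (right); each point is a gene, offset vertically for visibility, black bars are list medians and the dotted line is the median of all expressed genes. The immediate early genes lie to the right in CDK2i (median 2.72), while the 3 MYC-induced lists have CDK2i medians between −0.51 and 0.10.

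Genes whose products act on or with MYC were mostly within 2-fold. Over all genes that could pass, 8.07% were called lower in CDK2i and 8.93% higher in EZH2i. Of 11 genes of MYC turnover, 4 could pass in CDK2i and 8 in EZH2i. AURKA, the mitotic kinase that can stabilize MYC proteins, was called lower in CDK2i, at 19.9 FPKM in vehicle, against 4.94 under CDK2i and 35.7 under EZH2i. KIAA1524 (CIP2A), which protects MYC from dephosphorylation, was called higher in EZH2i, at 4.21, 3.45 and 12.8 FPKM, with a change of 1.61 and of 0.87 with the trend removed. Among 13 MYC cofactors, 10 could pass in CDK2i and 12 in EZH2i. Only CCNT1, the cyclin partner of CDK9, was called against vehicle, higher in EZH2i, and its change of 1.15 was 0.36 with the trend removed. Of 9 co-repressors that MXD proteins recruit, 8 could pass in CDK2i. SIN3A and ARID4B were called lower there, at 4.37 against 9.32 and 5.74 against 15.5 FPKM in vehicle. Of the 9 genes of the MGA and MAX repressor complex, 3 could pass in each comparison and none was called, beside 11.3% of all genes in CDK2i and 13.4% in EZH2i. Below the minimum, and chosen after their values were seen, E2F6 had a change of −1.37 in CDK2i and PCGF6 of 1.04 in EZH2i, the latter 0.66 with the trend removed. The medians over the 9 genes of this complex were −0.20 (CDK2i) and 0.67 (EZH2i), the latter 0.12 with the trend removed. PVT1, the noncoding gene next to MYC, was at 15.3, 13.5 and 18.4 FPKM, and its change of −0.18 in CDK2i (−0.34 to −0.02) was 0.06 with the trend removed.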

How the data were processed

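RNAseq of 3 xenograft tumors was analysed, 1 library each for vehicle, CDK2i and EZH2i. The authors aligned reads to GRCh37 and deposited log2 FPKM values per gene symbol (1 table), and the submitters' processing notes name CASAVA and STAR; the counting tool and gene lengths are not given in the sources used here. A value of −9 stands for an FPKM of 0. The labels name EPZ6438 for the EZH2i tumor, whereas the study names GSK343 for SUM-149 tumors elsewhere, so the agent rests on the label.

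Changes are differences of log2 FPKM without a pseudocount. Limma, used in the study, was not run, because 1 library per group leaves no residual error. Depth was taken as the value that put most low FPKM values on whole fragments (within 0.1%), with transcript lengths of GENCODE 44 on GRCh37. Fragment numbers of genes are approximate, because the authors' gene lengths may differ. Counting intervals are exact binomial (Clopper-Pearson, 95%) and cover counting error only. The GC and length trend was a polynomial of degree 3 in each, fitted over expressed genes that encode no ribosomal protein and subtracted, which also centres the changes. A GC content was available for 92.5% of expressed genes. Values at −9 kept their code under rescaling.

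The members and lists were chosen with earlier results of these data known. Named were all members, up to 4 genes per list (called genes first, then the most abundant), and the 5 genes nearest in profile to MYC and to each member called against vehicle; ARRDC4, MLXIP, MLXIPL, ZBTB17, PVT1, CD163, CD68 and the called LUM are list members. PECAM1 was among the listed endothelial markers and was not analysed here. Some items that this rule names are not reported here. Calculations were tested on simulated data. Python 3.11.15, numpy 2.4.6, pandas 2.3.3, scipy 1.17.1 and matplotlib 3.10.9 were used.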

Additional observations from a re-analysis of the deposited data

How the results depend on the processing

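Depth limits MYCN and MYCL1, with 7 to 70 fragments each. No paired analysis was possible because each group had 1 library. The direct comparison of the inhibitors and the ratios and shares with the trend removed were added to the alternatives after the data were seen. MYC stayed past the thresholds in CDK2i under every alternative except a fold threshold of 3, with changes between 1.05 and 1.39.

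In CDK2i 2 members were called. This was 1 with a pseudocount of 1 FPKM, with equal summed FPKM without ribosomal protein and mitochondrial genes, and with an expression minimum of log2 FPKM 5, leaving MYC each time; it was 0 with a fold threshold of 3 and 5 with no minimum, which added MYCL1, MYCN and MGA as lower. In EZH2i 0 members were called. This was 1 (MXD1) with equal summed FPKM, 2 with a fold threshold of 1.5 (MXD1 higher, MXD4 lower), 2 with no minimum (MGA higher, MYCN lower) and 1 (MGA) with a minimum of 1. For EZH2i against CDK2i, 2 members became 1 (MYC) with a pseudocount of 1 FPKM or a minimum of 5, 0 with a fold threshold of 3 and 4 with no minimum. They became 3 with a fold threshold of 1.5, adding MLX, and with a minimum of 1, adding MGA; they were MLX and MYC with either scaling to equal summed FPKM, and MYC and MXD1 with the trend removed. The median change of the members moved from 0.00 to 0.17 with centring and 0.26 with the trend removed in CDK2i, and from 0.17 to −0.047 with centring and 0.41 with equal summed FPKM in EZH2i.

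Over all genes, 752 were called in CDK2i, 990 in EZH2i and 1779 between the inhibitors. With a fold threshold of 1.5 these were 1947, 2710 and 3530, and with 3 they were 250, 186 and 599. With no minimum they were 11703, 10795 and 14245, with a minimum of 1 they were 2037, 2231 and 4032, and with 5 they were 196, 262 and 403. With the trend removed 362 were called in EZH2i and 895 between the inhibitors, and with equal summed FPKM 1621 in EZH2i. The share of called genes that were higher was 28.9% in CDK2i and 66.9% in EZH2i as deposited, 48.7% and 35.5% after centring, 46.1% and 88.9% with equal summed FPKM, 17.7% and 71.7% with those sums taken without ribosomal protein and mitochondrial genes, and 48.7% and 39.8% with the trend removed. Centring shifted the CDK2i library by 0.17 and the EZH2i library by −0.22 on the log2 scale.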
